A study of Mus musculus with 15 samples.

Results

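Trp53 and 9 genes that p53 is known to activate were followed through organoids of a mouse colon cancer model: Cdkn1a, Mdm2, Phlda3, Trp53i11, Trp53inp1, Bax, Ccng1, Bbc3 and Zmat3. These 10 genes were chosen by name, matched by Ensembl identifier, and make up 10 of 54418 genes in the deposited count table; all 10 passed the filter on low counts. The 15 RNA-seq libraries came from colon cancer organoids labelled AKP, tumour cells grown as small three-dimensional cultures, after passage through the colon of C57Bl6 recipient mice. Met1, Met2 and Met3 were organoids set up from liver metastases in transplant rounds 1, 2 and 3. Primary2 and Primary3 were organoids set up from the primary colon tumours of rounds 2 and 3. Each group had 3 libraries, and primaries of round 1 were not analysed here. By common usage the label AKP includes a mutant Trp53, which all 5 groups then carry. The labels neither spell it out nor describe the Trp53 allele, and there was no group with an intact Trp53. Nor do they say if replicates come from different mice, lines or dishes, so every p-value reflects the spread among these libraries alone, which may be technical.

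p53 is a transcription factor that is kept scarce by the ubiquitin ligase Mdm2 and accumulates after DNA damage or oncogene stress. It then switches on genes that halt the cell cycle, promote cell death or limit growth, and among them Mdm2 itself, which closes a feedback loop. Loss or mutation of the gene is a common step in the progression of colorectal cancer. Several of its targets are also reached by other transcription factors, so they are transcribed in cells that lack p53 function.

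The p53 protein binds DNA as a tetramer, over a pair of half-sites of 10 bases each. RefSeq promoter windows on GRCm38.p6, from 250 bases before to 50 bases after a gene's start, were at hand for 8 of the 10 genes, in 11 windows; Trp53inp1 and Zmat3 had none. The p53 half-site consensus, searched with no mismatch (it reads the same on both strands), occurred in 5 of the 11 windows, which belong to 5 genes, against 2745 of 32851 windows of all genes (8.36%). A pair of adjoining half-sites with at most 1 mismatch occurred in 2 of the 11, those of Cdkn1a and Ccng1, against 29 of all windows (0.0883%). The pair in Cdkn1a began 51 bases before the start and read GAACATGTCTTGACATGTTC, and the pair in Ccng1 began 195 bases before it and read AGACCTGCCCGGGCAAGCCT. Single half-sites lay 201 bases before the start in Bax, 186 in Mdm2, 75 in Trp53 and 73 in Cdkn1a. Cdkn1a had 2 windows with different starts, and all its sites above lay in the upstream window, with distances to that start. The other window, chr17:29093519-29093818, held no half-site, and its best pair had 5 mismatches. The windows of Phlda3, Trp53i11 and Bbc3 held no half-site, which says only that these letters are not in those windows. The 250 bases before the start are printed for 5 genes, in the direction of transcription, because the results below turn on Trp53, Mdm2, Cdkn1a and Trp53i11, and Ccng1 is the other gene with a pair. Capitals mark half-sites and pairs. The windows are chr11:69580109-69580358 (plus strand) for Trp53, chr10:117710759-117711008 (minus strand) for Mdm2 and chr17:29090729-29090978 (plus strand) for Cdkn1a. They are chr11:40755287-40755536 (minus strand) for Ccng1 and chr2:93187298-93187547 (plus strand) for Trp53i11.
Trp53: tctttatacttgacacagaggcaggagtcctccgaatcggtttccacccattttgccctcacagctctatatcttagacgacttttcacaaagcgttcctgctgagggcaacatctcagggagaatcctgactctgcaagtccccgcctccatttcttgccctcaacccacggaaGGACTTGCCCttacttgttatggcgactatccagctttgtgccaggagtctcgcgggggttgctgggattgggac
Mdm2: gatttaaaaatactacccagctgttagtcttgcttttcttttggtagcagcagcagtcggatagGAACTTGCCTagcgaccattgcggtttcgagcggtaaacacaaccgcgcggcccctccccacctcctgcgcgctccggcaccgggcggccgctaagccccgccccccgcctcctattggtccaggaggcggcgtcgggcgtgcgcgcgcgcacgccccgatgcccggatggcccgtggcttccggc
Cdkn1a: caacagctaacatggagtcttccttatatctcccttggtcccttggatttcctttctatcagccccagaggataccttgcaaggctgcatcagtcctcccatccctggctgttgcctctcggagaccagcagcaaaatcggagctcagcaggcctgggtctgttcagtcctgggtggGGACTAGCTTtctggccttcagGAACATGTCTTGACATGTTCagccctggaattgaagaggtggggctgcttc
Ccng1: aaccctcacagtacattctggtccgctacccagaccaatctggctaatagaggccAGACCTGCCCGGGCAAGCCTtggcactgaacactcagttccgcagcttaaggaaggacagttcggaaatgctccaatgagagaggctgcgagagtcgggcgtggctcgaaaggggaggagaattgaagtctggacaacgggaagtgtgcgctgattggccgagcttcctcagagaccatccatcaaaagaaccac
Trp53i11: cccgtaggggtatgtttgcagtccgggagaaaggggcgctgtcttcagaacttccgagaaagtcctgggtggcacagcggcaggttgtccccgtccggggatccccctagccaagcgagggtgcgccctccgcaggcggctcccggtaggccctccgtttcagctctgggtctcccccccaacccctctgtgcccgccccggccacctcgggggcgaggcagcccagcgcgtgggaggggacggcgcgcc

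Total counts ran from 14122203 to 21306543 per library. The 7 colon epithelium markers averaged above 1 CPM (counts per 1e6 counts of the library, after edgeR's TMM scaling) in every group and their sum ran from 5467 to 14820 CPM. Met2 replicate 1 stood apart with a marker sum of 5467 CPM, against 13560 and 14370 CPM in the other Met2 libraries. Its 6 fibroblast markers summed to 5.09 CPM, against at most 0.692 CPM in every other library. Endothelial markers summed to at most 0.549 CPM and hepatocyte markers to at most 0.860 CPM outside Met1, where they reached 5.96 CPM. Leukocyte markers summed to 5.96 to 29.3 CPM. A ribosomal RNA gene took 2.01% to 7.52% of counts, with all 3 Met2 libraries (at least 6.24%) above all 3 Primary2 libraries (at most 3.83%). In bulk libraries fewer cells of a type and less RNA per cell cannot be told apart.

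Per kilobase of exon and averaged over the 15 libraries, Bax had the highest level of the 10 genes, at 72.5 CPM per kb, above 94.8% of tested genes. Cdkn1a followed at 21.2, Phlda3 at 17.9, Ccng1 at 12.3, Mdm2 at 9.51, Trp53i11 at 5.79, Bbc3 at 5.40 and Trp53inp1 at 4.33 CPM per kb. Trp53 stood at 1.58 CPM per kb, above 30.7% of tested genes, and Zmat3 at 0.931 CPM per kb. The spread between libraries differed widely among them. The standard deviation of log2 CPM over 15 libraries was 0.21 for Ccng1, 0.26 for Zmat3, 0.28 for Bax, 0.33 for Mdm2 and 0.44 for Trp53, against a median of 0.41 over all tested genes. It was 0.64 for Bbc3, 0.81 for Phlda3, 0.82 for Cdkn1a, 1.31 for Trp53inp1 and 3.82 for Trp53i11.

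**Figure D1:**
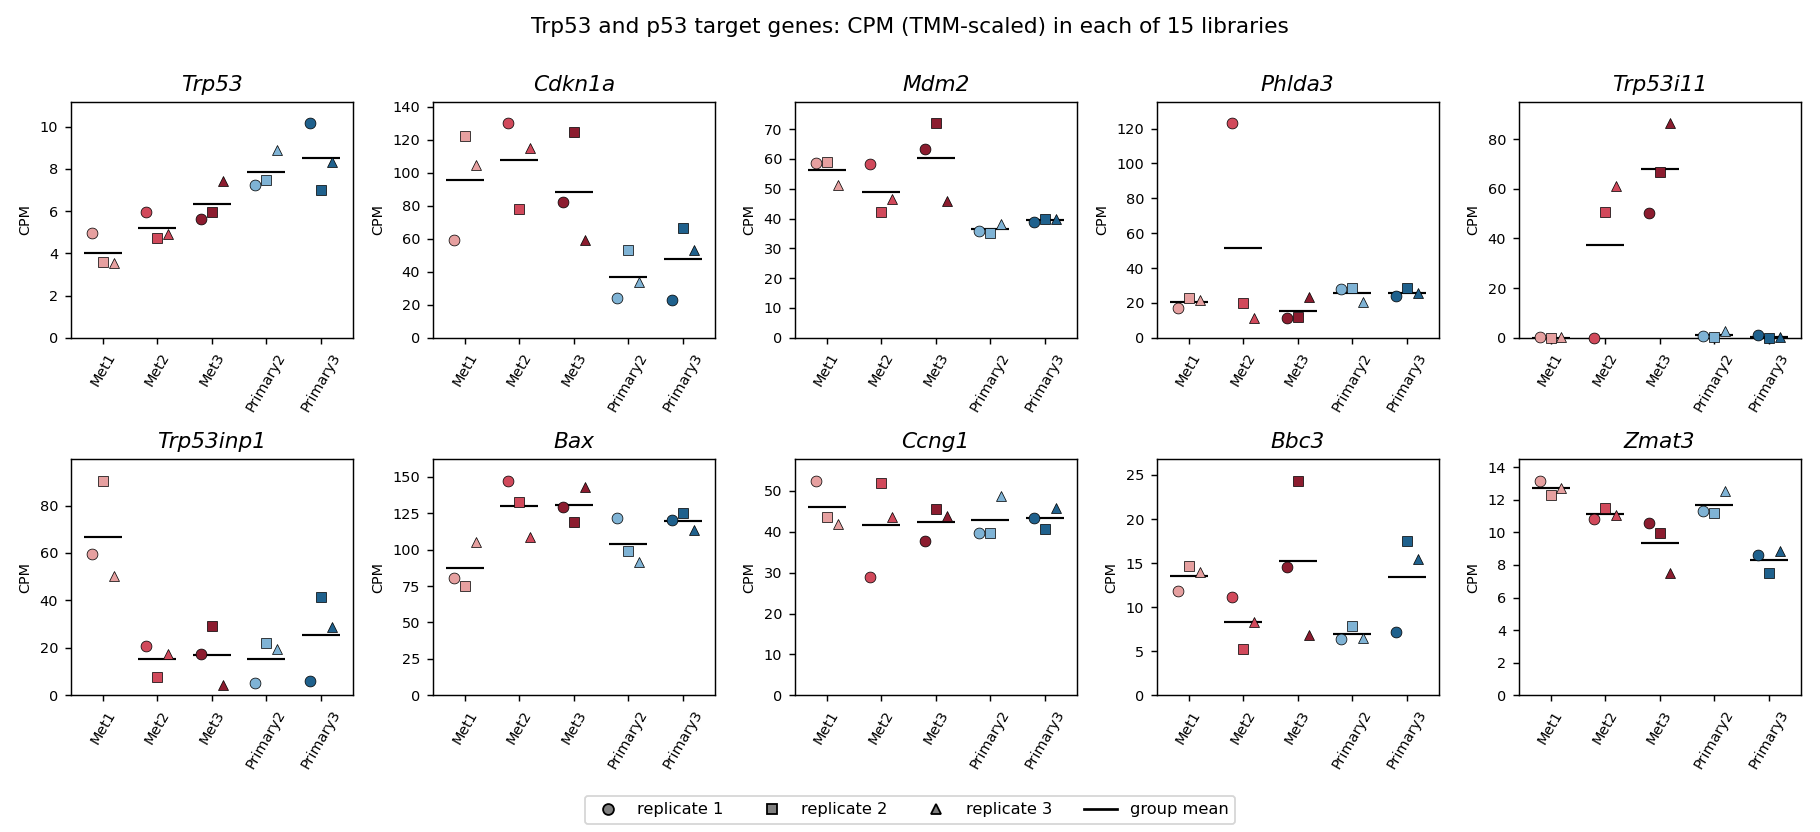
CPM (vertical axis, linear, from 0) of the 10 genes in each of 15 libraries, by group; symbols are replicates 1 to 3 and the bar is the mean of 3. Trp53 lies lower in the metastasis groups than in the primary groups and Cdkn1a and Mdm2 higher, while Trp53i11 reaches 50.3 to 86.5 CPM in 5 of the 6 Met2 and Met3 libraries and 2.84 CPM at most elsewhere.

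Organoids of later metastases (Met2 and Met3, 6 libraries) were set against organoids of primaries (Primary2 and Primary3, 6 libraries) to ask what sets metastasis apart from primary growth in the same rounds. Trp53i11, Cdkn1a and Mdm2 were higher and Trp53 was lower. That is 4 of 10 genes called, 3 higher and 1 lower, where 30.4% of all tested genes were called, 14.3% higher and 16.1% lower. The count is near the background and is not a result about the group. The median log2 change was 0.18 over the 10 genes and 0.01 over all tested genes. Of the 10, only Mdm2 had libraries that did not overlap between the sides, which held for 12.2% of all genes. Epithelial markers moved in the same comparison: of 7, Cdx2 (2.03), Krt8 (1.6) and Krt19 (0.75) were higher and Cdh1 (-0.49) lower on the log2 scale. Of 6 leukocyte markers 2 were high enough to test, and Cd68 was higher (0.97, adjusted p = 0.0266) and Csf1r lower (-4.46, adjusted p = 0.000680). The part of these markers in the results was not tested.

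Met1 was also set against the same 6 primary libraries, a comparison in which site and transplant round cannot be told apart. There, 4 of 10 genes were called, 3 higher and 1 lower, against 29.6% of all genes, 14.9% higher and 14.7% lower. They were Trp53inp1, Cdkn1a and Mdm2 (higher) and Trp53 (lower). The libraries did not overlap for 3 of the 10 genes (Trp53, Mdm2 and Trp53inp1), as for 32.5% of all genes. Hepatocyte markers summed to 1.33 to 5.96 CPM in Met1, against at most 0.860 CPM in the primaries. Of the 7 epithelial markers 4 were higher and 0 lower, with a summed level of 10610 to 13250 CPM in Met1, against 5539 to 8074 CPM in the primaries. Leukocyte markers summed to 19.7 to 29.3 CPM in Met1, against 5.96 to 19.7 CPM in the primaries, with Cd68 higher (1.66) and Csf1r lower (-3.97). The Met1 sum was nearly all Cd68, which averaged 22.8 CPM, against 5.82 in Primary2 and 8.96 in Primary3. Csf1r averaged 0.259 CPM in Met1, against 2.88 in Primary2 and 6.04 in Primary3. Ptprc averaged 0.179 CPM in Met1 and Cd3e 0.0152 CPM, while Lyz2 and Adgre1 stood at 0. The part of these markers in the Met1 values was not tested. The comparison shares its primary libraries with the one above, so the values of both are given side by side and do not support each other.

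The remaining comparisons changed few of these genes. Within round 2 (Met2 against Primary2) Trp53i11 and Cdkn1a were higher, 2 of 10 genes, against 11.8% of all genes called (5.5% higher, 6.35% lower). Within round 3 (Met3 against Primary3) Trp53i11 and Mdm2 were higher, 2 of 10, against 19.1% of all genes (8.12% higher, 11% lower). In Met3 against Met1 Trp53i11 and Bax were higher, 2 of 10, against 23.4% (11.6% higher, 11.8% lower). In Met2 against Met1, which shares the Met1 libraries, Trp53i11 and Bax were higher as well, 2 of 10, against 16.3% (8.7% higher, 7.57% lower). No overlap of libraries was found for 3 of 10 genes in round 2, 3 in round 3, 5 between Met3 and Met1 and 4 between Met2 and Met1, where the shares of all genes were 29.6%, 44.4%, 44.5% and 32.7%.

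Where no gene of the 10 was called, the background was low as well. Met3 against Met2 called 0 of 10 by edgeR, against 0.275% of all genes; 1 of the 10 had an unadjusted p under 0.05, as did 2157 of 14925 genes. DESeq2 and limma-voom called 0 of the 10, and 588 and 4 genes in all. Libraries did not overlap for 1 of the 10 there, against 15.4% of all genes, and for 2 of the 10 in Primary3 against Primary2, against 16.7%. Primary3 against Primary2 called 0 of 10 and 0 genes in all by edgeR, with 2 of the 10 at an unadjusted p under 0.05 (Bbc3 and Zmat3), as for 1063 of 14925 genes. DESeq2 called 0 of 10 and 44 genes in all, and limma-voom 0 of 10 and 1 in all. The test of whether the metastasis effect differed between rounds 3 and 2 called 0 of 10 and 0 in all by edgeR. None of the 10 had an unadjusted p under 0.05 there, where 1817 of 14925 genes did. DESeq2 called 0 of the 10 and 225 genes in all, and limma-voom 0 and 0.

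**Figure D2:**
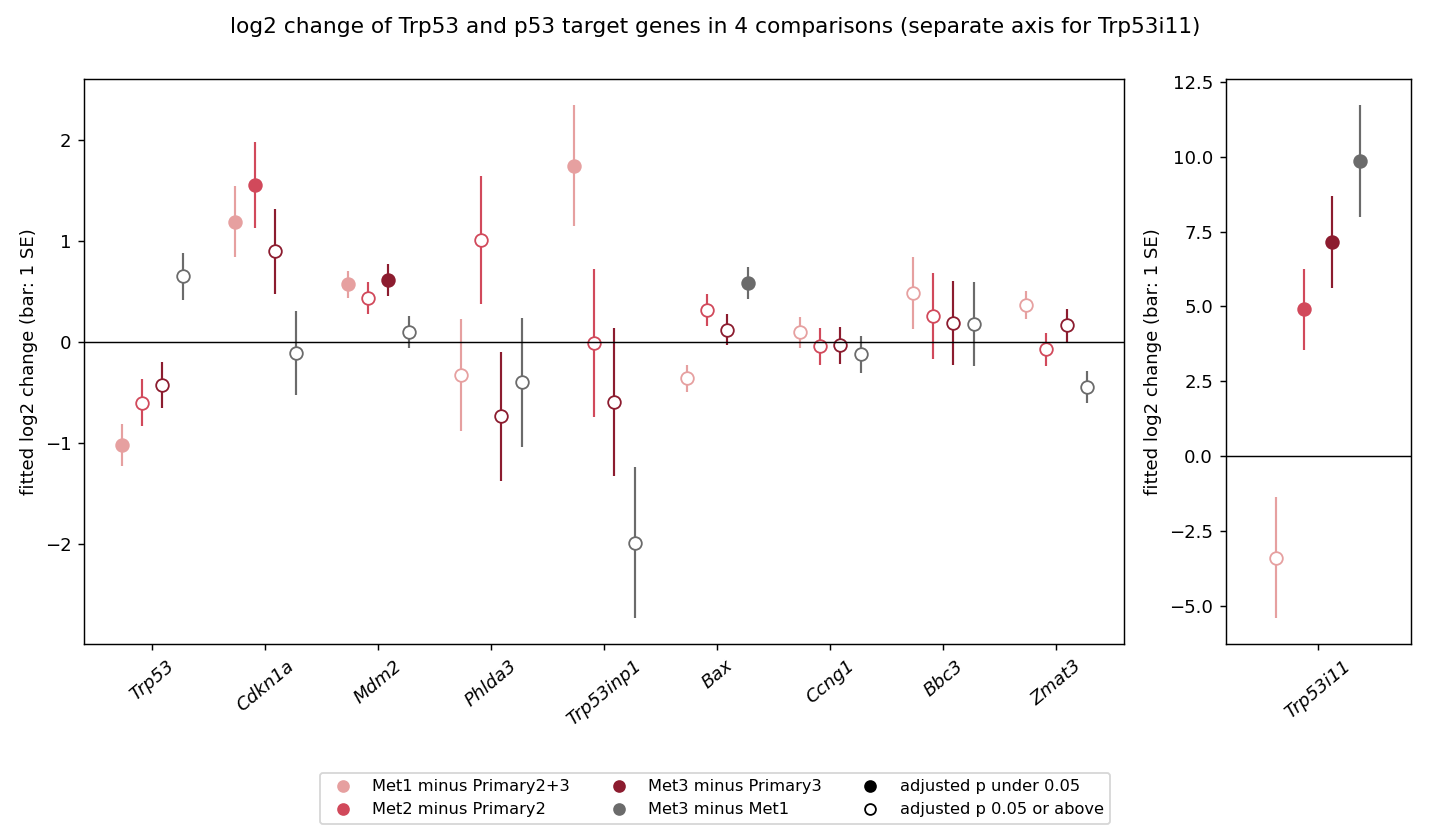
Fitted log2 change (vertical axis; bars are 1 standard error) of each gene in 4 comparisons of 3 or more libraries a side; filled symbols have an adjusted p under 0.05, and Trp53i11 has its own axis. Trp53 lies below 0 and Mdm2 and Cdkn1a above 0 in all 3 comparisons of metastasis with primary organoids, and Trp53i11 runs from -3.41 in Met1 against the primaries to 9.87 in Met3 against Met1.

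Trp53 (ENSMUSG00000059552, GRCm38 chromosome 11, 69580359 to 69591873, plus strand) encodes p53 itself. Its transcript was counted in all libraries, at 67 to 188 counts each, and the counts do not show which allele or protein was made. It stood at 4.96, 3.60 and 3.52 CPM in Met1, 5.97, 4.71 and 4.92 in Met2 and 5.60, 5.94 and 7.44 in Met3, against 7.25, 7.46 and 8.91 in Primary2 and 10.2, 7.0 and 8.31 in Primary3. The group means ran in the order Met1, Met2, Met3, Primary2, Primary3, low to high, and neighbours in that order overlapped at every step. In Met2 and Met3 together the libraries had a median of 5.77 CPM (4.71 to 7.44), against 7.88 CPM (7.0 to 10.2) in the primaries, and 5 of the 6 lay below all 6 primary libraries. There Trp53 fell by 0.51, in log2 units (SE 0.16, adjusted p = 0.0312).

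Within a single round the change of Trp53 did not pass. It was -0.60 for Met2 against Primary2 (SE 0.23, adjusted p = 0.105, 3 of 3 libraries below all Primary2) and -0.42 for Met3 against Primary3 (SE 0.23, adjusted p = 0.208). In Met1 the level averaged 4.03 ± 0.807 CPM (SD, n = 3), and all 3 libraries lay below all 6 primary libraries, with a fall of 1.02 (SE 0.21, adjusted p = 0.00429). Met3 exceeded Met1 by 0.65 (SE 0.23, adjusted p = 0.0582), with no overlap of libraries and without passing the test. That last difference passed with DESeq2 (0.0232), with the ribosomal RNA share as covariate (0.0251), without Met1 replicate 1 (0.0413) and without Met2 replicate 1 (0.0475).

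The call of Trp53 in later metastases was lost without Met2 replicate 2 (adjusted p = 0.0789) or 3 (0.0743), Met3 replicate 1 (0.0929) or 2 (0.0647), Primary2 replicate 3 (0.0732), Primary3 replicate 1 (0.0790) or 3 (0.0562), and with no filter on low counts (0.141). The call in Met1 held in all 23 alternatives, at an adjusted p of 0.0279 at most. The neighbouring gene Wrap53, which lies 103 bases away on the opposite strand and encodes a telomerase-associated protein, had other values. Wrap53 changed by 0.04 in later metastases against primaries (SE 0.12, adjusted p = 0.842) and by -0.42 in Met1 against primaries (SE 0.16, adjusted p = 0.0574), and it was higher in Met3 than in Met1 by 0.56 (SE 0.18, adjusted p = 0.0376); its difference from Trp53 was not tested. The pseudogene Trp53-ps had 0 counts, and the paralogs Trp63 and Trp73 were too low to test.

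Mdm2 (ENSMUSG00000020184, chromosome 10, 117688875 to 117710758, minus strand) encodes the ligase that marks p53 for destruction. It stood at 58.7, 59.1 and 51.1 CPM in Met1, 58.5, 42.2 and 46.6 in Met2 and 63.3, 72.1 and 46.0 in Met3, against 35.7, 35.3 and 38.1 in Primary2 and 38.9, 39.7 and 39.9 in Primary3. All 9 metastasis libraries lay above all 6 primary libraries. Mdm2 rose by 0.52 in Met2 and Met3 against the primaries (SE 0.11, adjusted p = 0.00414), a fold change of 1.44. It rose by 0.57 in Met1 against the same primaries (SE 0.13, adjusted p = 0.00819). Both calls held in all 23 alternatives, at adjusted p-values of at most 0.0116 and 0.0435.

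The rise of Mdm2 was 0.61 in round 3 (SE 0.16, adjusted p = 0.0189) and 0.43 in round 2 (SE 0.16, adjusted p = 0.0889). The round 3 call was lost without Met3 replicate 1 (0.0535) or 2 (0.0724), without Primary3 replicate 1 (0.0527), 2 (0.0562) or 3 (0.0597), and with the ribosomal RNA share as covariate (0.0689, with the value at 0.64); the round 2 difference passed without Met3 replicate 3 (0.0452). The difference between the rounds was 0.18 (SE 0.22, adjusted p = 0.773). Primary3 and Primary2 libraries did not overlap either, but the step was small, at 0.12 (SE 0.16, adjusted p = 0.902). Metastasis groups overlapped with one another.

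Cdkn1a (ENSMUSG00000023067, chromosome 17, 29090976 to 29100727, plus strand) encodes p21, the inhibitor of cyclin-dependent kinases through which p53 arrests the cycle. It stood at 59.4, 122 and 105 CPM in Met1, 130.04, 78.3 and 115 in Met2 and 82.0, 125 and 58.9 in Met3. In primaries it stood at 23.7, 52.9 and 33.6 CPM in Primary2 and 22.8, 66.6 and 53 in Primary3. Of the 9 metastasis libraries 7 lay above all 6 primary libraries, and the other two, at 59.4 and 58.9 CPM, lay below Primary3 replicate 2. The means of Met1, Met2 and Met3, at 95.5 ± 32.5, 108 ± 26.6 and 88.5 ± 33.3 CPM (SD, n = 3 each), could not be told apart by their spread.

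Cdkn1a rose by 1.22 in later metastases against primaries (SE 0.30, adjusted p = 0.00861), a fold change of 2.34, and the call held in all 23 alternatives (0.000289 to 0.0236). Met1 against the same primaries gave 1.19 (SE 0.35, adjusted p = 0.0228), lost without Met1 replicate 2 (0.120) or 3 (0.0657); with the ribosomal RNA share as covariate it was 1.93 (0.00355). Round 2 gave 1.55 (SE 0.43, adjusted p = 0.0351) and round 3 0.90 (SE 0.42, adjusted p = 0.149), and the difference between rounds was -0.65 (SE 0.59, adjusted p = 0.678). The round 2 value shrank to 0.28 (adjusted p = 0.825) when the ribosomal RNA share, which was higher in all Met2 than in all Primary2 libraries, was a covariate, and the round 3 value then grew to 1.84 (0.0192). The round 2 call was also lost with only the groups compared (0.0690) and without Met2 replicate 1 (0.0643) or 3 (0.0697), Primary2 replicate 1 (0.113) or 3 (0.110), or Primary3 replicate 3 (0.0510). A gene annotated on the opposite strand, AC167363.2, shares 273 exon bases with Cdkn1a and had 23 counts over all libraries; whether the counting used strand is not given in the sources used here.

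Ccng1 (ENSMUSG00000020326, chromosome 11, 40748552 to 40755311, minus strand) encodes cyclin G1, a p53-induced partner of protein phosphatase 2A. Over all 15 libraries it varied least of the 10 genes, though within groups (SD of log2 CPM 0.23) it varied more than Zmat3, Bax, Mdm2 and Trp53. It stood at 52.5, 43.6 and 41.8 CPM in Met1, 29.0, 52.0 and 43.7 in Met2 and 37.7, 45.5 and 43.8 in Met3, against 39.8, 39.8 and 48.9 in Primary2 and 43.3, 40.7 and 45.9 in Primary3. All 5 groups overlapped. Ccng1 changed by -0.04 in later metastases (SE 0.13, adjusted p = 0.851), with an interval of 2 SE on either side from -0.30 to 0.22. In Met1 against primaries it changed by 0.10 (interval -0.22 to 0.41, adjusted p = 0.679). Cdkn1a, the other gene with an adjoining pair of half-sites in a window, rose in both comparisons.

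Bax and Bbc3 promote cell death at the mitochondrion. Bax (ENSMUSG00000003873, chromosome 7, 45461697 to 45466898) encodes the protein that opens the outer membrane, and Bbc3 (ENSMUSG00000002083, chromosome 7, 16308393 to 16318205) encodes PUMA, a BH3-only activator of that step. Bax stood at 80.8, 75.1 and 105 CPM in Met1, 147, 133 and 109 in Met2 and 129.5, 119 and 143 in Met3, against 121, 99.3 and 91.7 in Primary2 and 120.5, 125 and 113 in Primary3. All 6 later metastasis libraries lay above all 3 Met1 libraries. Bax was higher in Met3 than in Met1 by 0.58 (SE 0.16, adjusted p = 0.0191) and in Met2 than in Met1 by 0.57 (SE 0.16, adjusted p = 0.0286), and the 2 comparisons share Met1.

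Both Bax calls depended on single libraries. The first was lost without Met1 replicate 1 (0.0637) or 2 (0.0824) or Met3 replicate 3 (0.0636). The second was lost without Met1 replicate 1 (0.0832) or 2 (0.119) or Met2 replicate 1 (0.0708) or 2 (0.0685), with only the groups compared (0.131), with no filter on low counts (0.0552) and with the ribosomal RNA share as covariate (0.190, with the value at 0.65). Against primaries Bax changed by 0.22 in later metastases (SE 0.11, adjusted p = 0.150) and by -0.36 in Met1 (SE 0.14, adjusted p = 0.0643); the Met1 difference passed with DESeq2 (0.0476) and without Met1 replicate 3 (0.0241). The gene Gm45808 shares 192 exon bases with Bax on the same strand and had 4 counts in all.

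Bbc3 passed in none of the 9 comparisons. It stood at 11.8, 14.6 and 14 CPM in Met1, 11.2, 5.29 and 8.37 in Met2 and 14.6, 24.3 and 6.81 in Met3, against 6.39, 7.83 and 6.49 in Primary2 and 7.21, 17.5 and 15.4 in Primary3. Met3 and Primary3 spread the most, each with 1 library near the Primary2 level. The change in later metastases was 0.22 (SE 0.30, interval -0.37 to 0.82, adjusted p = 0.602).

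Phlda3, Trp53inp1 and Zmat3 act in growth restraint and stress responses. Phlda3 (ENSMUSG00000041801, chromosome 1, 135766119 to 135769136) encodes a membrane-binding protein that competes with the kinase Akt. It stood at 17.2, 22.8 and 21.7 CPM in Met1, 123, 20.05 and 11.5 in Met2 and 11.4, 11.8 and 23.6 in Met3, against 27.9, 28.3 and 20.5 in Primary2 and 24.1, 28.3 and 25.4 in Primary3. One library, Met2 replicate 1, held more than all others, and it is the library with the low epithelial and the raised fibroblast marker sums given above, whose part in this value was not tested. With it, Phlda3 changed by 0.14 in later metastases (SE 0.45, adjusted p = 0.839). Without it, Phlda3 fell by 0.71 (adjusted p = 0.0229), so direction and call both rest on that library. Met2 against Met1 gave 1.33 (SE 0.64, adjusted p = 0.168), -0.38 without Met2 replicate 1 (0.440) and 1.80 without Met2 replicate 3 (0.0470).

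Trp53inp1 (ENSMUSG00000028211, chromosome 4, 11156431 to 11174379) encodes a nuclear stress protein that also takes part in autophagy. It stood at 59.6, 90.5 and 50.4 CPM in Met1, above every other library of the series. It stood at 20.8, 7.93 and 17.5 CPM in Met2 and 17.2, 29.0 and 4.40 in Met3, against 5.0, 22.0 and 19.5 in Primary2 and 6.07, 41.6 and 28.7 in Primary3. Replicate 1 of both primary groups was low, and Met3 replicate 3 was the lowest of all. Trp53inp1 rose in Met1 against primaries by 1.75 (SE 0.60, adjusted p = 0.0442). Later metastases against the same primaries gave -0.30 (SE 0.52, adjusted p = 0.690).

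The Met1 call of Trp53inp1 was lost without Met1 replicate 1 (0.0809), 2 (0.171) or 3 (0.0618), Met3 replicate 1 (0.0530), Primary2 replicate 1 (0.0796) or 3 (0.0583), or Primary3 replicate 1 (0.0660) or 3 (0.0689). With the ribosomal RNA share as covariate it was 3.03 (0.0174). Met3 against Met1 gave -1.99 (SE 0.75, adjusted p = 0.0719), which passed with DESeq2 (0.0212), limma-voom (0.0358), the ribosomal RNA share as covariate (0.0232), no filter on low counts (0.0393) and without Primary3 replicate 1 (0.0472). Met2 against Met1 gave -2.12 (SE 0.75, adjusted p = 0.0712), which passed with DESeq2 (0.0166), no filter on low counts (0.0412) and without Primary3 replicate 1 (0.0499). In both of these all libraries of the later round lay below all Met1 libraries.

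Zmat3 (ENSMUSG00000027663, chromosome 3, 32334792 to 32366014) encodes a zinc-finger RNA-binding protein that acts in splicing. It stood at 13.2, 12.3 and 12.7 CPM in Met1, 10.8, 11.5 and 11.1 in Met2 and 10.6, 9.98 and 7.49 in Met3, against 11.3, 11.2 and 12.5 in Primary2 and 8.63, 7.52 and 8.84 in Primary3. Round 3 was the lower one on both sides: all Met3 libraries lay below all Met2 libraries and all Primary3 below all Primary2. The differences were -0.25 for Met3 against Met2 (SE 0.16, adjusted p = 0.484) and -0.49 for Primary3 against Primary2 (SE 0.16, adjusted p = 0.634, unadjusted p = 0.00965), and neither passed. Met3 against Met1 gave -0.45 (SE 0.16, adjusted p = 0.0611), which passed with DESeq2 (0.0209) and limma-voom (0.0391). Later metastases against primaries gave 0.05 (SE 0.11, adjusted p = 0.785) and Met1 against primaries 0.37 (SE 0.14, adjusted p = 0.0589). The Met1 difference passed with DESeq2 (0.0191), limma-voom (0.0409), only the groups compared (0.0377) and without Met3 replicate 3 (0.0385).

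Trp53i11 (ENSMUSG00000068735, chromosome 2, 93187548 to 93201759, plus strand), named for its induction by p53, had the largest change of the 10 genes. It held 934, 1154 and 1650 counts in Met3 (50.3, 66.6 and 86.5 CPM) and 0, 786 and 830 counts in Met2 (0, 50.7 and 60.9 CPM). In Met1 it held 2, 0 and 2 counts. In primaries it held 9, 8 and 60 counts in Primary2 (0.484, 0.371 and 2.84 CPM) and 16, 1 and 5 in Primary3 (1.08, 0.0643 and 0.295 CPM). The gene thus stood at 60 counts or fewer in 10 of 15 libraries and at 786 or more in the other 5. Met2 was split: replicate 1 lay with Met1 and the primaries, and replicates 2 and 3 with Met3.

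Later metastases exceeded primaries by 6.02 in log2 units (SE 1.03, adjusted p = 0.00116), and without Met2 replicate 1 by 6.32 (1.7e-05). Pooled over libraries the ratio of CPM was 59.4 (95% counting interval 48.6 to 73.2, from 5354 and 99 counts). Met3 exceeded Primary3 by 7.15 (SE 1.55, adjusted p = 0.00864), Met2 exceeded Primary2 by 4.90 (SE 1.34, adjusted p = 0.0347) and Met2 exceeded Met1 by 9.0 (SE 1.85, adjusted p = 0.0116). Met3 exceeded Met1 by 9.87 (SE 1.87, adjusted p = 0.00396), where the ratio was 1032 (403 to 3789, from 3738 and 4 counts). The counting intervals leave out the spread between samples.

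All 5 calls of Trp53i11 were lost with limma-voom, which gave 5.06 for later metastases (adjusted p = 0.0989), 7.68 for round 3 (0.134), 2.44 for round 2 (0.596), 5.95 for Met2 against Met1 (0.439) and 9.81 for Met3 against Met1 (0.153). With the ribosomal RNA share as covariate 3 calls were lost while the changes stayed large, at 6.69 in round 3 (0.0510), 5.89 in round 2 (0.262) and 10.22 for Met2 against Met1 (0.114). The round 2 call was also lost with only the groups compared (0.186) and without Met2 replicate 2 (0.0619) or 3 (0.0738), Primary2 replicate 1 (0.107) or 2 (0.106) or Primary3 replicate 3 (0.0509), and the call of Met2 against Met1 without Met1 replicate 2 (0.0535). Primary2 replicate 3 held 60 of the 77 Primary2 counts, and without it the change grew to 6.43 in round 2 (0.0560, no longer called) and 6.79 in later metastases (0.00252). Primary3 replicate 1 held 16 of the 22 Primary3 counts, and without it the change grew to 8.48 in round 3 (0.0231) and 6.69 in later metastases (0.00348). Without Met2 replicate 1 the changes were 5.48 in round 2 (0.00160), 7.16 in round 3 (0.000210) and 9.58 for Met2 against Met1 (0.000540). Met1 against primaries gave -3.41 (SE 2.02, adjusted p = 0.220, ratio 0.0723 with a counting interval of 0.0193 to 0.191), which passed without Met2 replicate 1 (0.0349). Met3 against Met2 gave 0.87 (SE 1.1, adjusted p = 0.744).

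Beyond the 10 genes, 4 lists of further p53 targets held 44 genes, of which 39 were tested. In later metastases against primaries 12 rose and 5 fell, with a median of 0.24 over the 39 and 0.01 over all genes. In Met1 against primaries 13 rose and 2 fell, with medians of 0.40 and -0.03. Between Met3 and Met1 4 rose and 8 fell, with a median of -0.22. The counts called, 17, 15 and 12 of 39, stand beside 30.4%, 29.6% and 23.4% of all genes, and each list below is to be read against these shares. In a recount chosen after seeing the data, these counts moved with the setting, as did the calls over all genes (in brackets). In the first they were 11 without Met2 replicate 3 (4077 of 15432) and 10 without Met3 replicate 1 (3656 of 15368). In the second they were 9 without Met1 replicate 1 (3158 of 15385) and 5 without Met1 replicate 2 (2115 of 15392). They were also 8 without Primary2 replicate 1 (3503 of 15406) and, of 44 tested, 9 with no filter on low counts (3730 of 32481). In the third they were 4 without Met1 replicate 2 (1988 of 15392) and 5 without Met3 replicate 1 (2161 of 15368). They were 6 there without Met3 replicate 3 (2593 of 15433). Without Met2 replicate 1 they rose to 21 (5265 of 15372), 18 (5257) and 14 (4449).

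The growth arrest list held 6 of the 12 rises of the first comparison and 6 of the 13 of the second. Of its 12 tested genes 6 rose and 0 fell in later metastases (median 0.48), and 6 rose and 0 fell in Met1 (median 0.72), both against primaries. Of all genes 14.3% rose and 16.1% fell in the first comparison, and 14.9% rose and 14.7% fell in the second. Both comparisons share their primary libraries, and the list was chosen with earlier results of these data known. Sertad1, a regulator of Cdk4, rose by 0.69 in later metastases (SE 0.11, adjusted p = 0.000714) and by 0.41 in Met1 (SE 0.13, adjusted p = 0.0331). Sesn2 and Sesn1, sestrins that restrain mTORC1, rose by 1.15 (SE 0.35, adjusted p = 0.0267) and 0.62 (SE 0.16, adjusted p = 0.0105) in later metastases. In Met1 they rose by 1.85 (adjusted p = 0.00640) and 0.56 (adjusted p = 0.0385). Sfn, the cell cycle inhibitor 14-3-3 sigma, rose by 1.13 in later metastases (SE 0.23, adjusted p = 0.00312) and stood at 0.61 in Met1 (adjusted p = 0.106).

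Met3 against Met1 gave 1 rise and 3 falls among these 12, beside 11.6% higher and 11.8% lower of all genes. Gadd45a, a stress sensor that slows the cycle, fell by 2.98 (SE 0.78, adjusted p = 0.0170) and the kinase gene Plk2 fell by 1.17 (SE 0.35, adjusted p = 0.0315), while Sertad1 rose by 0.51 (SE 0.15, adjusted p = 0.0292). In Met1 against primaries Gadd45a rose by 2.25 (adjusted p = 0.0150) and Plk2 by 0.97 (adjusted p = 0.0262). These 2 comparisons share the Met1 libraries.

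Of 9 tested cell death targets, 1 rose and 0 fell in later metastases against primaries (median 0.22), beside 14.3% and 16.1% of all genes. The one that rose was Triap1, an inhibitor of apoptosis at the mitochondrion, by 0.63 (SE 0.18, adjusted p = 0.0181). Ei24 (0.23), Bid (-0.35) and the BH3-only gene Pmaip1 (-1.29) did not pass, at adjusted p-values of 0.0745, 0.0815 and 0.0931. Between Met3 and Met1 Triap1 rose by 0.82 (adjusted p = 0.0345) and Apaf1, the core of the apoptosome, fell by 0.77 (adjusted p = 0.0138), while Aen stood at 0.61 (adjusted p = 0.0925). In Met1 against primaries Apaf1 rose by 1.07 (SE 0.16, adjusted p = 0.000983), the single rise of that list there, beside 1 fall.

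DNA repair and nucleotide supply targets went both ways. Of 8 tested, 2 rose and 3 fell in later metastases (median -0.13), beside 14.3% and 16.1% of all genes. Xpc, which recognises damage in nucleotide excision repair, fell by 0.61 (SE 0.11, adjusted p = 0.00177) and the translesion polymerase gene Polh fell by 0.39 (SE 0.11, adjusted p = 0.0168). Ercc5, an excision nuclease, rose by 0.28 (SE 0.10, adjusted p = 0.0463) and Rps27l, a ribosomal protein paralog, by 0.30 (SE 0.11, adjusted p = 0.0461). Against Met1, Met3 had the helicase gene Ascc3 lower: it fell by 0.79 (adjusted p = 0.00502), Rps27l rose by 0.62 (adjusted p = 0.0119) and Polh stood at -0.44 (adjusted p = 0.0568). How the authors' counting split reads between Rps27l and its paralog Rps27 was not tested.

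Among 10 tested metabolic and other targets, 3 rose and 2 fell in later metastases (median 0.05), beside 14.3% and 16.1% of all genes. Gls2, the p53-induced glutaminase, had the largest change, with a log2 value of -3.11 (SE 0.38, adjusted p = 0.000163). Gls2 was low, at 785 counts over all libraries. It averaged 0.572 CPM in Met2 and 0.470 in Met3, against 3.62 in Primary2, 5.57 in Primary3 and 4.07 in Met1. Its change was -2.65 in round 2 (adjusted p = 0.0103), -3.56 in round 3 (adjusted p = 0.00176) and -3.11 in Met3 against Met1 (adjusted p = 0.00294), whereas Met1 against primaries gave -0.14 (SE 0.42, adjusted p = 0.827). Prkab1, a subunit of AMP-activated kinase, rose by 1.31 (SE 0.24, adjusted p = 0.00194) in later metastases and by 1.24 in Met3 against Met1 (adjusted p = 0.0218). Fuca1, a lysosomal fucosidase, rose by 0.45 (adjusted p = 0.0116) and Trim32, a ubiquitin ligase, fell by 0.49 (adjusted p = 0.00413) in later metastases, and Trim32 fell by 0.90 in Met3 against Met1 (adjusted p = 0.00268).

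**Figure D3:**
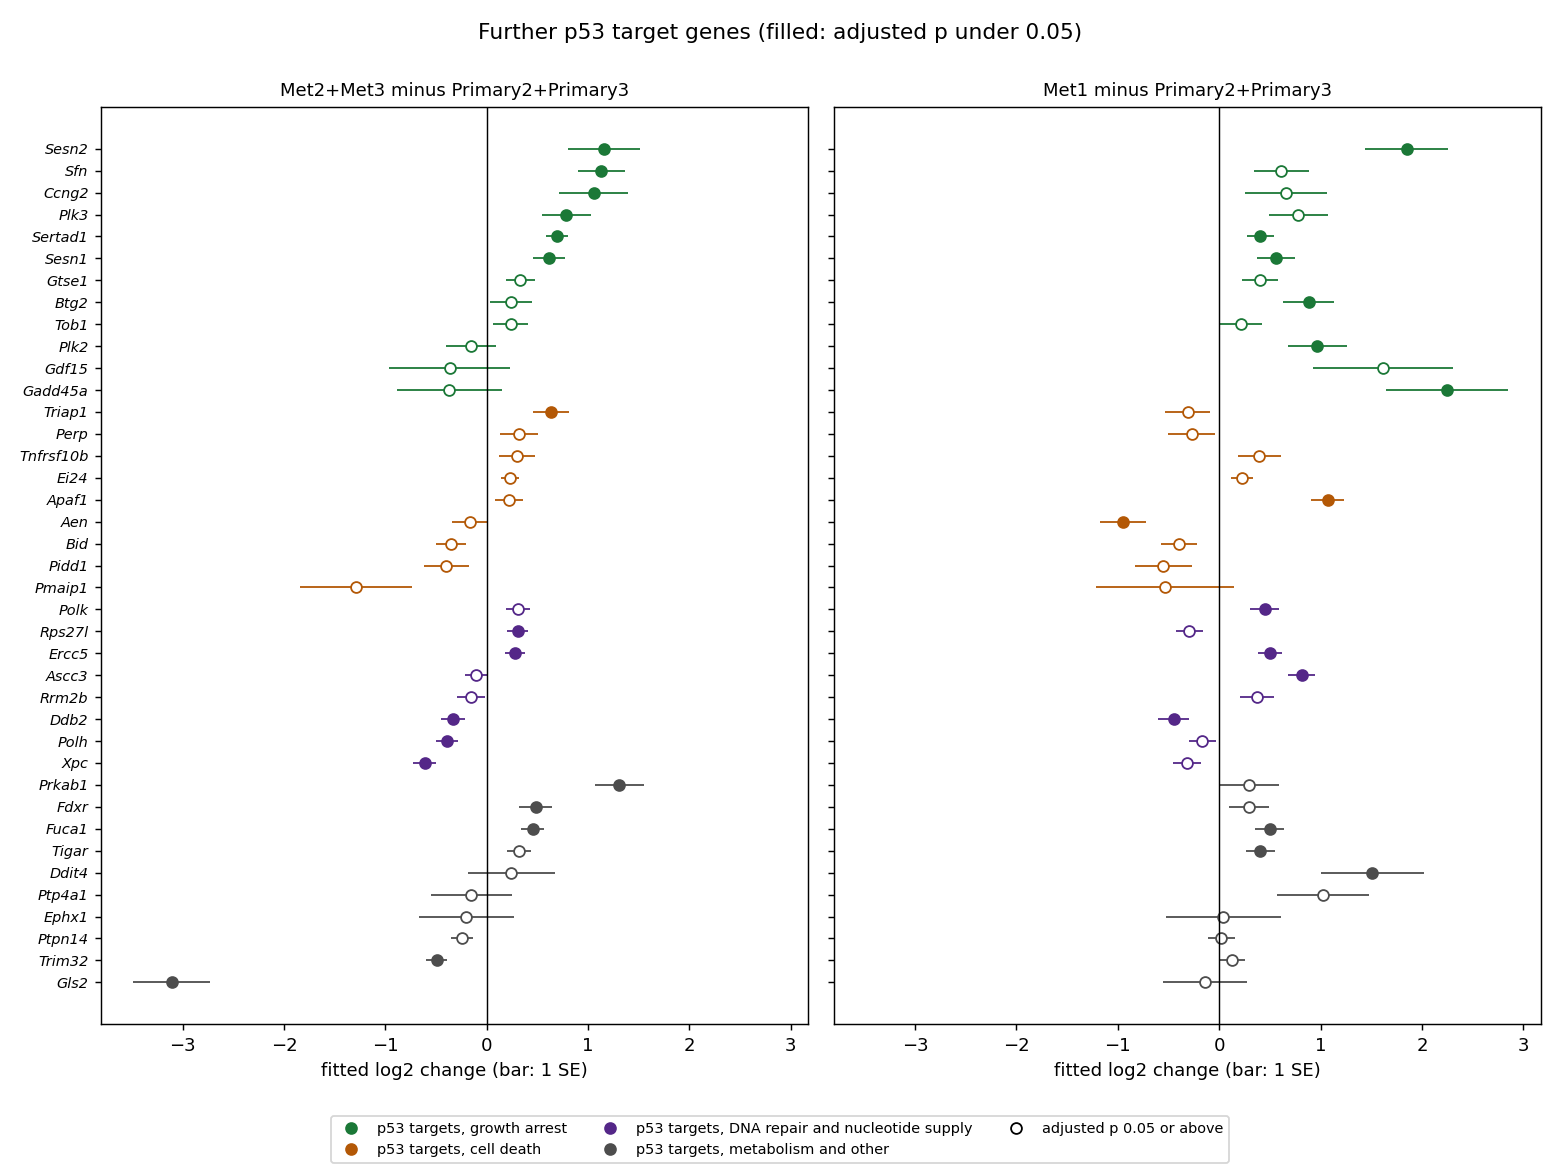
Fitted log2 change (horizontal axis, the same in both panels; bars are 1 standard error) of 39 further p53 targets, sorted within 4 lists; filled symbols have an adjusted p under 0.05. The left panel sets Met2 and Met3, and the right panel Met1, against the same primary libraries; 12 genes rose and 5 fell on the left, 13 rose and 2 fell on the right, and Gls2 stands apart on the left at -3.11.

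Genes that act on p53 were 12, all tested, with 2 rises and 2 falls in later metastases (median -0.08), where 14.3% of all genes rose and 16.1% fell. Hipk2, a kinase that phosphorylates p53, rose by 1.35 (SE 0.18, adjusted p = 0.000292) and by 1.43 in Met1 against primaries (SE 0.21, adjusted p = 0.000908). Rchy1, a ligase for p53, rose by 0.65 (SE 0.23, adjusted p = 0.0498). Atr, the replication stress kinase, fell by 0.52 (SE 0.13, adjusted p = 0.0107) and by 1.2 in Met3 against Met1 (adjusted p = 0.00223). Cdkn2a, which encodes the Mdm2 inhibitor p19Arf and the kinase inhibitor p16, fell by 0.75 (SE 0.21, adjusted p = 0.0159). The ligase gene Cop1 fell by 0.81 in Met3 against Met1 (adjusted p = 0.00215) and Ppm1d, the p53-induced phosphatase Wip1, rose by 1.11 (adjusted p = 0.0321).

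Within round 2 Cdkn2a changed by 0.24 (SE 0.29, adjusted p = 0.635). Within round 3 it changed by -1.73 (SE 0.30, adjusted p = 0.00296). It averaged 356 CPM in Met2 against 302 in Primary2, and 153 in Met3 against 509 in Primary3. The fall of Cdkn2a over both rounds thus came with a fall in round 3 only. The test of a difference between rounds called 0 genes, so Cdkn2a was not called there either. Of the 6 other cyclin-dependent kinase inhibitors, which include Cdkn2a, 2 rose and 1 fell in later metastases (median 0.10, against the same 14.3% and 16.1%). Cdkn1c, p57, rose by 0.65 (SE 0.16, adjusted p = 0.0103) and by 1.16 in Met1 against primaries (adjusted p = 0.00162). Cdkn2d, p19Ink4d, rose by 0.49 (SE 0.13, adjusted p = 0.0137) and Cdkn1b, p27, stood at 0.27 (adjusted p = 0.197). In Met3 against Met1 Cdkn2a fell by 0.96 (adjusted p = 0.0336), while Cdkn1b (-0.58, 0.0666) and Cdkn2b (-0.68, 0.0719) did not pass.

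Of 12 tested other genes of the BCL-2 family, 2 rose and 1 fell in later metastases (median -0.04), beside 14.3% and 16.1% of all genes. The pro-death genes Bad and Bok rose by 0.54 (SE 0.09, adjusted p = 0.00142) and 0.82 (SE 0.15, adjusted p = 0.00177), and the survival gene Bcl2 fell by 0.54 (SE 0.19, adjusted p = 0.0492). In Met3 against Met1 Bad rose by 0.64 (adjusted p = 0.00611), while Bok (0.48, 0.109) and Bcl2l2 (-0.38, 0.105) did not pass. Cell cycle genes that p53 represses through p21 and the DREAM complex numbered 12. Of them 0 rose and 2 fell in later metastases, beside 14.3% and 16.1% of all genes, though their median was 0.11. Cdc25c fell by 0.46 (SE 0.12, adjusted p = 0.0117) and Bub1 by 0.37 (SE 0.12, adjusted p = 0.0327), while Ccnb1 (0.27, 0.125) and Ccna2 (-0.26, 0.156) did not pass. In Met3 against Met1 Birc5, survivin, rose by 0.93 (SE 0.25, adjusted p = 0.0186), and Cenpf (-0.55, 0.0813) and Cdc25c (0.38, 0.115) did not pass.

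Over the 15 libraries the genes whose log2 CPM ran most like that of Trp53, by the root mean square difference after centring, were Map4k2 (0.18), Ankrd10 (0.20) and Hnrnph1 (0.20), where the median of all genes was 0.55. Map4k2 averaged 10.9, 13.3 and 17.7 CPM in Met1, Met2 and Met3, against 18.6 and 17.8 CPM in Primary2 and Primary3. The genes most like Cdkn1a were Ccng2 (0.35), P4ha1 (0.35) and Slc2a1 (0.36), where the median was 0.88. Slc2a1, the glucose transporter Glut1, averaged 391, 387 and 373 CPM in Met1, Met2 and Met3, against 178 and 164 CPM in Primary2 and Primary3. P4ha1, a collagen prolyl hydroxylase, averaged 90.0, 110.3 and 84.3 CPM in the metastases, against 51.5 and 59.7 CPM in the primaries. Ccng2, cyclin G2, averaged 98.9, 133 and 127 CPM in the metastases, against 59.1 and 66.2 CPM in the primaries. It was placed in the growth arrest list above, though not among the genes named there.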

How the data were processed

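RNA was taken from 15 organoid cultures with a poly(A)-selected directional kit, per the labels' protocols. Per the submitters' processing notes, the authors used Salmon 1.3.0 and mm10. The deposited table holds estimated counts per Ensembl gene, all whole numbers; the summing of transcripts, the annotation and the strand setting were not stated. Symbols, exon lengths and positions came from GENCODE M21 (54166 of 54418 identifiers matched). Under R 4.3.3, edgeR 4.0.16 (TMM, filterByExpr, quasi-likelihood F test, 5 group means in one fit of 15 libraries) tested 14925 genes. Adjusted p-values are Benjamini-Hochberg values over those genes, called under 0.05. SE was derived as log2 change over the root of F. Alternatives used DESeq2 1.42.0, limma-voom (limma 3.58.1), RLE factors, no filter, only the groups compared, a ribosomal RNA covariate, a replicate block and each library left out. Code was tested on simulated data. Total counts of 14122203 to 21306543 per library set the counting precision. The 10 genes and all lists were chosen with earlier results of these data known. From each other list, the 4 genes with the smallest p in later metastases against primaries, and 3 in Met3 against Met1, are named.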

Additional observations from a re-analysis of the deposited data

Results flagged for a closer look

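Each of the 10 genes was checked in the 6 Met2 and Met3 libraries and in the 6 primary libraries for 1 library far from the rest, by its gap to the nearest other library over the whole range of log2 CPM. Of 20 such sets 3 exceeded the critical value, where chance alone gives about 1 in 20. Trp53i11 in Met2 replicate 1 had a gap of 0.919 of the range: it held 0 counts, against 786 to 1650 counts in the other 5. Phlda3 in the same library had a gap of 0.696, at 123 CPM, against 11.4 to 23.6 CPM in the other 5. Zmat3 in Met3 replicate 3 had a gap of 0.672, at 7.49 CPM, against 9.98 to 11.5 CPM in the other 5.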

How the results depend on the processing

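Each of 9 comparisons was recomputed under 23 alternatives, chosen with earlier results known. Of 2067 values of single genes, 1985 kept their side of the threshold, 57 lost a call and 24 gained one. The remaining 1, Phlda3 in later metastases against primaries, was not called in the main fit (0.14). Without Met2 replicate 1 it changed sign and was called (-0.71), within a range of -0.71 to 0.40 over the libraries left out. Trp53i11 fell below the filter on low counts in Met2 against Met1, Met1 against primaries and Primary3 against Primary2 when only the groups compared were fitted. In later metastases against primaries (4 called) the number of the 10 genes called stayed within 3 to 5. It stayed at 0 for Met3 against Met2, Primary3 against Primary2 and the difference between rounds. For Met3 against Met1 (2 called) it was 5 with DESeq2, 4 with the ribosomal RNA share as covariate and 1 to 3 with a library left out. For Met2 against Primary2 (2 called) it was 1 with limma-voom, 0 with only the groups compared, 0 with the covariate and 0 to 3 with a library left out. For Met3 against Primary3 (2 called) it was 1 with limma-voom, 1 with the covariate and 1 to 2 with a library left out. For Met2 against Met1 (2 called) it was 1 with limma-voom, 0 with only the groups compared, 0 with the covariate and 0 to 3 with a library left out. For Met1 against primaries (4 called) it was 6 with DESeq2, 5 with limma-voom and 2 to 5 with a library left out. The cause of these shifts was not tested, and neither was the part of the fewer degrees of freedom in fits of fewer samples. Calls over all genes moved too. For later metastases against primaries they were 4537 (3656 to 5289). They were 1768 for Met2 against Primary2 (112 to 2830), 2850 for Met3 against Primary3 (1372 to 3814), 2428 for Met2 against Met1 (14 to 3424) and 3499 for Met3 against Met1 (1988 to 4449). They were 4420 for Met1 against primaries (2115 to 5257), 41 for Met3 against Met2 (0 to 588), 0 for Primary3 against Primary2 (0 to 44) and 0 for the difference between rounds (0 to 225).

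Whether the replicate numbers pair the libraries was not settled. Same-numbered libraries of different groups had deviations with correlations of -0.123 to 0.416, over 0.1 in 10 of 30 pairs. Their median was 0.0103, against -0.00864 for pairs of different number. Of the 15 libraries 8 correlated best with their own number. With the replicate number as a block, 4 of the 10 genes were called in later metastases against primaries, as without it, and 2 in Met3 against Met1. Among the 10 genes, Trp53, at 67 to 188 counts per library, and Trp53i11 outside Met2 and Met3, at 0 to 60 counts, are the values that depth limits most.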
